A study of Mus musculus with 10 samples.

Results

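The genes Ddx58, Trim14, Samd9l and Irf5, which serve interferon responses and the sensing of foreign RNA, were followed in the colon of mice with and without Vista during chemically induced colitis. They were chosen by name, and are 4 of the 55416 rows of the deposited count tables. Libraries came from whole colon of 5 Vista knockout (KO) mouse samples and 5 wild-type (WT) samples. Every mouse had drunk 2% dextran sulfate sodium (DSS), a salt that injures the colonic epithelium, for 7 days, and no group without DSS was included. A first deposited table held 3 KO and 3 WT libraries, and a second held 2 KO and 2 WT libraries. The KO genotype was labelled a VISTA knockdown for the first table, and Vista-/- for the second and in the series' design text, and the libraries of both were treated as KO. The labels named no strain, age or targeted cell type. The design text speaks of 3 biological replicates per group, but which animals gave the 4 later libraries is not labelled. The p-values therefore stand for the spread between libraries, which may be technical.

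Foreign or misplaced RNA in the cytoplasm is bound by the helicase RIG-I, which signals through the mitochondrial adaptor MAVS and switches on type I interferon genes. Interferons then act on neighbouring cells and induce a large set of antiviral genes, which raises the level of the sensors themselves. IRF5 is a transcription factor downstream of Toll-like receptors, used mainly by macrophages, dendritic cells and B cells, where it drives inflammatory cytokine genes. In the colon this system meets microbial RNA as well as RNA of dying cells. Vista, encoded by Vsir, is an immune checkpoint protein of myeloid and T cells.

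Ddx58 encodes RIG-I itself (ENSMUSG00000040296, mm10 chromosome 4 from 40203773 to 40239828, minus strand). Trim14 encodes an adaptor that joins the RIG-I pathway at MAVS (ENSMUSG00000039853, chromosome 4 from 46493781 to 46536141, minus strand). Samd9l, an interferon-induced gene, restrains poxviruses and dampens growth signalling (ENSMUSG00000047735, chromosome 6 from 3372257 to 3399572, minus strand). Irf5 lies on chromosome 6 from 29526625 to 29541871 on the plus strand (ENSMUSG00000029771). Positions and names are those of GENCODE M21, an mm10 annotation.

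The RNA sensor gene is itself a target of interferon signalling, so its start was searched on both strands for the core of the interferon-stimulated response element, written as GAAA, any 2 bases and GAAA again. The search used RefSeq promoter windows of 300 bases on GRCm38.p6, from 250 bases before to 50 after a gene's start. Ddx58 held 1 match, on the strand opposite to the gene, from base 3 to base 12 counted from the RefSeq start. The GENCODE start of the gene lies a few bases upstream of it. The 30 bases around it, at chr4:40239804-40239833 on the minus strand, are shown 5′ to 3′ with the match in capitals:
Ddx58: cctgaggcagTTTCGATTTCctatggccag
Read on the opposite strand the capitals are GAAATCGAAA. The windows of Samd9l and Irf5 held no match, which says only that these letters are not in those windows. Of all 32851 windows, 1131 (3.44%) held at least 1 match. A match is a description of the sequence and not a measured binding site.

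Library totals ran from 3691322 to 4071238 counts. Counts were scaled to CPM, the count per 1000000 of a library's total. WT libraries 4 and 5, which are the WT pair of the second table, were far from the other 8. A principal component analysis of log2 CPM placed them at 44.4 and 48.3 on its leading axis, against −25.3 to 5.88 for those. Gene names were read only within the first 59.9 Mb of chromosome 4 and the first 30.3 Mb of chromosome 6, because elsewhere counts often did not follow the names. These 2 regions hold all 4 genes, 1098 rows and 7.98% to 8.65% of a library's counts. The Vsir row lies outside them, on chromosome 10 from 60346851 to 60372684, and so does not check the genotype. It held 27, 49, 33, 97 and 40 counts in KO libraries 1 to 5, against 42, 78, 82, 5 and 0 in WT libraries 1 to 5.

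All 4 genes were counted well enough to be judged. The lowest count in any library was 296 for Ddx58, 198 for Trim14, 1546 for Samd9l and 72 for Irf5. The lowest of these, in WT library 5, carries an exact 95% Poisson interval of 56.3 to 90.7 counts, which covers counting error only. Genes beside them were counted in every library too. Aco1, next to Ddx58, had 1258 to 1880 counts, and Atp6v1f and Tnpo3, on both sides of Irf5, had 1225 to 1464 and 839 to 1322. The names of 2 of the genes carry a limit, since the strand setting of the counting is not given in the sources used here. Of the exon length of Trim14, 31.3% is shared with Nans, a sialic acid synthase gene on the other strand with 92908 counts over all libraries. Irf5 shares 14.1% of its exon length with Tnpo3 on the other strand. Ddx58 and Samd9l overlap no other gene.

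Levels were compared between genes as CPM per kb of exon. Samd9l was the highest at 94.4 ± 14.6 CPM per kb (SD, n = 10 libraries), rank 57 of 303 tested protein-coding rows in the regions. Irf5 followed at 20.5 ± 9.47, Ddx58 at 18.7 ± 4.09 and Trim14 at 16.2 ± 2.00 CPM per kb. These 3 lay near the median of 23.0 CPM per kb of those rows, and their order is within the spread of the libraries. Samd9l did not overlap them, since its lowest value, 76.1 CPM per kb, stood above their highest, 37.7 CPM per kb in Irf5.

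**Figure D1:**
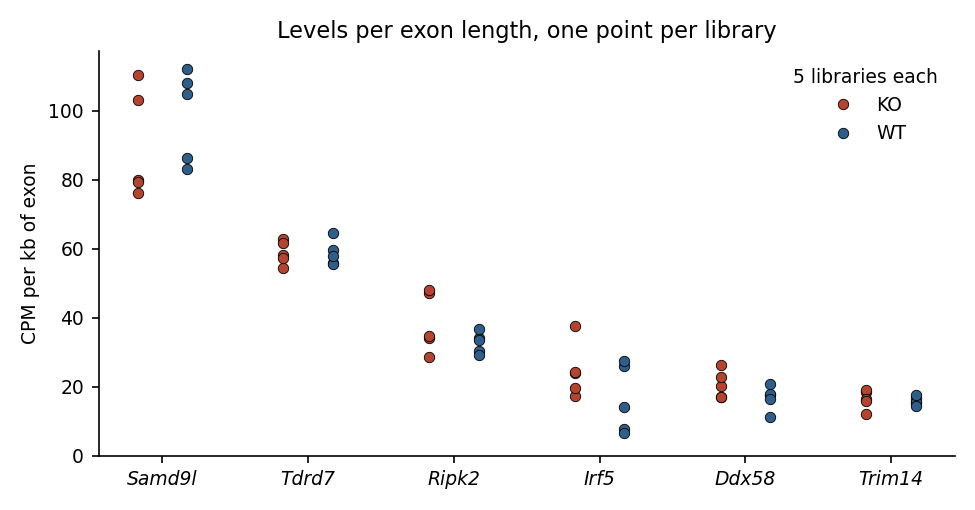
CPM per kb of exon in each of 5 KO and 5 WT libraries (points), for the 4 genes and for Tdrd7 and Ripk2, other interferon-inducible genes of the same regions. Samd9l stands between 76.1 and 112 CPM per kb, above every value of the others, and the values of Irf5, Ddx58 and Trim14 overlap.

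The comparison of KO with WT colon asked whether the loss of Vista changes these genes in colitis. Over all 10 libraries none of the 4 differed by edgeR's quasi-likelihood test at an adjusted p under 0.05, with the deposited table as a covariate. Of all rows tested, edgeR called 5.63% in this comparison, and 9.09% of the 352 rows in the regions. DESeq2 called 8.71% and voom 5.8% of all rows, and neither called any of the 4 genes. The number of the 4 genes with an unadjusted p under 0.05 was 0 in edgeR, 0 in voom and 1, Irf5, in DESeq2. Within the tables the picture was different. Samd9l fell in KO libraries of the first table, whereas its KO values lay above the WT values of the second. Irf5 overlapped between genotypes in the first table, whereas both KO values of the second lay above both WT values. Ddx58 did not overlap in the second table either. The share of all rows without overlap was counted in neither table. For Samd9l and Irf5 the effect of genotype differed between the tables by edgeR's test of the interaction, which called 2.05% of all rows. In voom the interaction of Irf5 did not pass.

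**Figure D2:**
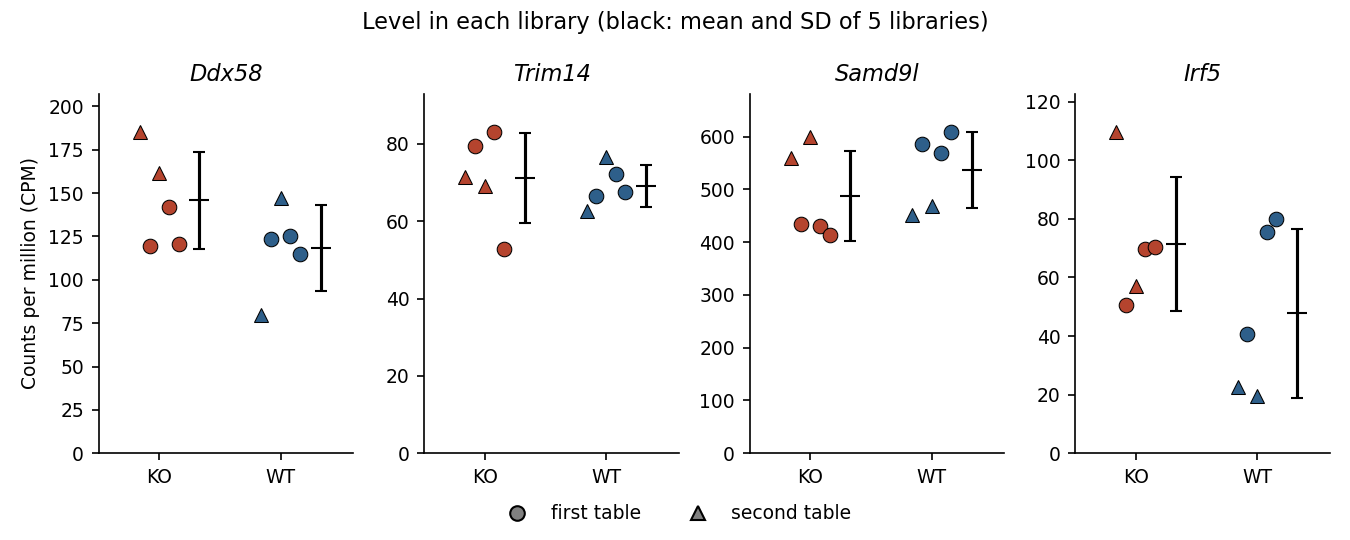
CPM of the 4 genes in each library, KO left of WT, with circles for the first deposited table and triangles for the second, and the mean and SD of 5 libraries in black. For Samd9l the KO circles and the WT triangles lie low and the other points high, and for Irf5 the 2 WT triangles lie below every other library.

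Ddx58, the RIG-I gene, stood at 119.7, 142, 121, 185 and 162 CPM in KO libraries 1 to 5, against 124, 125, 115, 79.5 and 147 CPM in WT libraries 1 to 5. The genotypes overlapped, with both KO libraries of the second table highest and WT library 4 lowest. Within the second table alone both KO values lay above both WT values. The mean was 146 ± 27.9 CPM in KO and 118 ± 24.7 CPM in WT (SD, n = 5 each). The log2 fold change of KO over WT was 0.32 ± 0.16 (SE), with a 95% interval from −0.04 to 0.67 and an adjusted p of 0.260 in edgeR. It was 0.11 within the first table (edgeR adjusted p = 0.564) and 0.62 within the second (edgeR adjusted p = 0.438). The value within the second table was 0.24 without WT library 4 and 1.11 without WT library 5, and within the first it ran from 0.011 to 0.18 as single libraries were left out. Without WT library 4 the value over all libraries was 0.15, and 0.41 without WT library 5. The difference between the tables was 0.51 ± 0.30 (SE; edgeR adjusted p = 0.487), and it was 0.11 and 1.007 without these libraries. Over all libraries the adjusted p lay between 0.228 and 0.441 in edgeR whichever library was left out. A p above the threshold does not show equal levels, and the interval allows a log2 difference of up to 0.67.

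Trim14, the adaptor gene, had 79.5, 83.0, 52.9, 71.3 and 69.0 CPM in KO libraries 1 to 5, against 66.6, 72.1, 67.4, 62.6 and 76.7 CPM in WT libraries 1 to 5. KO library 3 was the lowest of all and KO libraries 1 and 2 the highest, so the WT values lay inside the range of the KO values. The mean was 71.2 ± 11.7 CPM in KO and 69.1 ± 5.43 CPM in WT (SD, n = 5 each). The log2 fold change was 0.08 ± 0.13 (SE) with a 95% interval from −0.22 to 0.37 and an adjusted p of 0.764 in edgeR. Within the first table it was 0.11, and within the second 0.01. Without KO library 2 the sign turned over all libraries, at −0.015. Of the 4 genes Trim14 had the smallest spread in WT libraries, with a coefficient of variation of 7.86% against a median of 13.3% over the 303 rows.

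Samd9l had 434, 430.3 and 413 CPM in KO libraries 1 to 3 of the first table, against 586, 569.5 and 609 CPM in WT libraries 1 to 3. The genotypes did not overlap, and every KO library was below every WT library. How many of all rows were separated so was not counted. In the second table the order was the other way round, with 559.9 and 599 CPM in KO libraries 4 and 5 against 451 and 469 CPM in WT libraries 4 and 5. Thus the KO values of the first table and the WT values of the second lay between 413 and 469 CPM, and the other 5 libraries between 559.9 and 609 CPM.

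In the first table Samd9l fell in KO colon by 0.43 ± 0.09 (SE) on the log2 scale, or 1.35-fold (edgeR adjusted p = 0.0285). DESeq2 and voom called it too, with adjusted p values of 0.00666 and 0.0256, and no other of the 4 genes. Of all rows, 6.06% were called in that table by edgeR (2.96% as lower in KO), 7.06% by DESeq2 and 5.35% by voom. Among rows tested in the regions edgeR called 10.6% (7.43% as lower in KO). The call was lost without any 1 of the 6 libraries, where edgeR gave adjusted p values between 0.0595 and 0.0848 and log2 fold changes between −0.46 and −0.38. In the second table the log2 fold change was 0.34 ± 0.15 (SE; edgeR adjusted p = 0.381). The difference between the tables, tested as an interaction of genotype and table, was 0.77 ± 0.15 (SE) as a log2 value (edgeR adjusted p = 0.0219). By edgeR 2.05% of all rows had such an interaction, and 3.12% of those in the regions, against 3.53% of all rows by DESeq2 and 1.58% by voom. DESeq2 and voom gave adjusted p values of 0.000404 and 0.0228 for it. It lost the edgeR call without KO library 1 or 3 or WT library 1, 3, 4 or 5, where the adjusted p lay between 0.0514 and 0.129. Over all 10 libraries the opposite signs left a log2 fold change of −0.12 ± 0.13 (SE; edgeR adjusted p = 0.620) and means of 487 ± 85.6 CPM in KO and 537 ± 71.9 CPM in WT (SD, n = 5 each).

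Irf5 varied more than the other 3, by 5.62-fold between the highest and the lowest library. It had 50.4, 69.8, 70.3, 109.6 and 57.2 CPM in KO libraries 1 to 5, against 40.9, 75.6, 80.0, 22.6 and 19.5 CPM in WT libraries 1 to 5. WT libraries 4 and 5 lay below every other library, and KO library 4 above. The coefficient of variation was 32.1% in KO and 60.2% in WT libraries, and only 11 of the 303 rows varied more in WT. In the first table the genotypes overlapped, at 63.5 ± 11.3 CPM in KO and 65.5 ± 21.5 CPM in WT (SD, n = 3 each), with a log2 fold change of −0.01 ± 0.22 (SE).

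In the second table Irf5 stood at 109.6 and 57.2 CPM in KO libraries, against 22.6 and 19.5 CPM in WT libraries, without overlap. The share of all rows without overlap there was not counted. The log2 fold change was 1.99 ± 0.35 (SE), with an unadjusted p of 0.00148 and an adjusted p of 0.0790 in edgeR. It passed in DESeq2 with an adjusted p of 6.55e-05 and did not in voom, with 0.114. Of all rows, 0.856% were called in this table by edgeR, 4.42% by DESeq2 and 0.282% by voom, and 1.4% of the rows in the regions by edgeR. The difference between tables was 2.00 ± 0.45 (SE) as a log2 value, and its adjusted p was 0.0479 in edgeR, 0.000948 in DESeq2 and 0.103 in voom. The edgeR call held without KO library 5 or WT library 1 and was lost without any 1 of the other 8, where the adjusted p lay between 0.0688 and 0.221.

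Over all 10 libraries the log2 fold change of Irf5 was 0.75 ± 0.37 (SE), with a 95% interval from −0.06 to 1.55 and an adjusted p of 0.245 in edgeR. The means were 71.5 ± 22.9 CPM in KO and 47.7 ± 28.7 CPM in WT (SD, n = 5 each). Without both WT libraries of the second table, and so without the covariate, it was 0.15 ± 0.26 (SE), against 0.60 without the covariate alone. Single libraries of either genotype moved it too. It was 0.43 without KO library 4, 0.53 without WT library 4 and 0.49 without WT library 5. With no filter on low counts the same fit gave 0.77 and an adjusted p of 1.23e-05, in a table where 4.47% of 28202 rows were called.

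**Figure D3:**
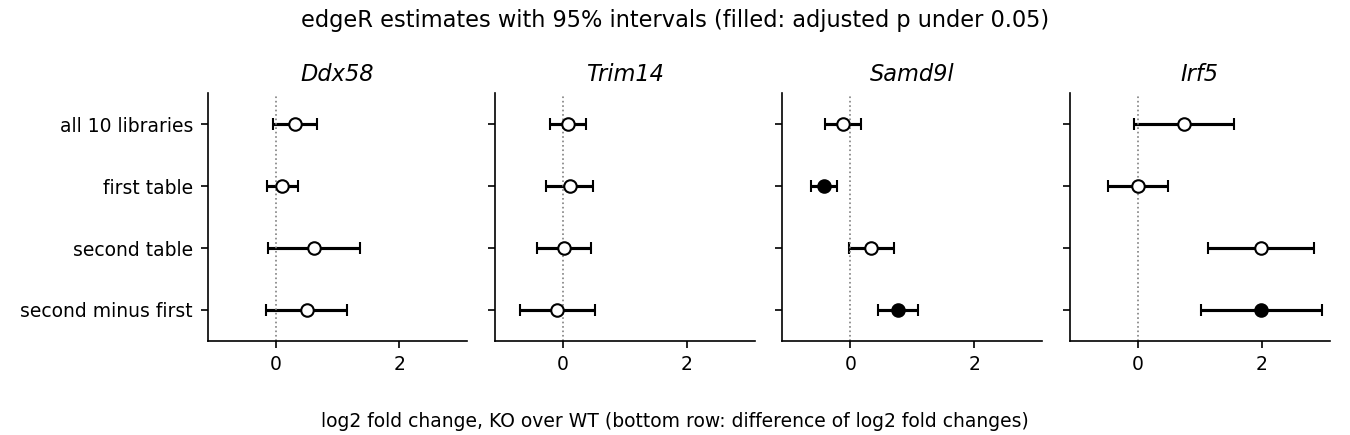
Log2 fold change of KO over WT by edgeR, with 95% intervals, over all 10 libraries, in the first and the second deposited table, and the difference between the tables (second minus first). Filled points passed an adjusted p of 0.05, and they are Samd9l in the first table and the differences between tables of Samd9l and Irf5.

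The libraries are bulk tissue, in which fewer cells of a type and less RNA per cell cannot be told apart. Genes of the regions were set beside the 4 by the likeness of their values over libraries. Pearson's r was taken on log2(CPM + 1), centred within each table, against the other 302 tested protein-coding rows of the regions. It is given as a description over 10 libraries that share their depth and genotype.

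Irf5 was most like 2 genes of B cells. These were Cd72, a B cell surface receptor (r = 0.94), and Pax5, the transcription factor that fixes B cell identity (r = 0.93). The third, Tmem67, a ciliary membrane gene, had r = 0.93. Without WT libraries 4 and 5 the values were 0.76, 0.72 and 0.88. Pax5 had 55.4, 61.7, 68.7, 130.1 and 80.8 CPM in KO libraries 1 to 5, against 61.2, 134, 148 and then 10.7 and 5.15 CPM in WT libraries 1 to 5. WT libraries 4 and 5 were lowest for Pax5 as they were for Irf5. Cd72 had 46.2 to 88.1 CPM over the KO libraries, against 53.3 to 117 CPM in WT libraries 1 to 3 and 14.8 and 12.7 CPM in WT libraries 4 and 5.

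**Figure D4:**
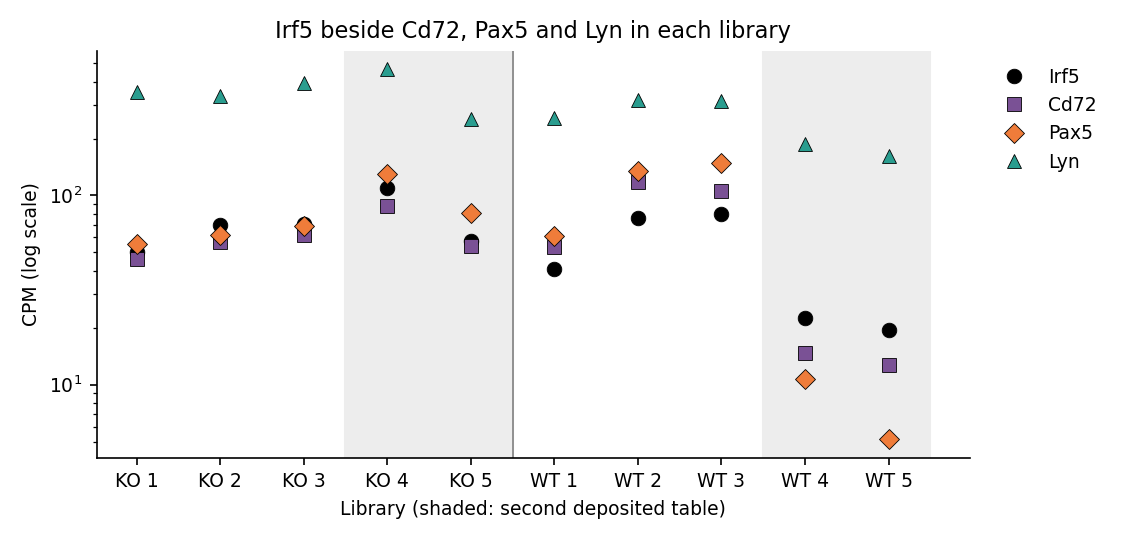
CPM on a log axis of Irf5, the B cell genes Cd72 and Pax5, and Lyn, a kinase gene of B and myeloid cells, in each library, with the second deposited table shaded. All 4 are lowest in WT libraries 4 and 5, and Irf5, Pax5 and Lyn reach 109.6, 130.1 and 465 CPM in KO library 4.

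The B cell markers and Lyn were low in the same 2 WT libraries as Irf5. Of 4 B cell markers 2 lie in the regions, and their summed level was 135 to 218 CPM in KO and 17.9 to 25.5 CPM in WT libraries of the second table. In the first table the sum was 102 to 130.4 CPM in KO and 114 to 254 CPM in WT libraries. Of 5 myeloid markers 2 lie in the regions, Lyn and Tfec, with a sum of 256 to 476 CPM in KO and 166 to 190.4 CPM in WT libraries of the second table, and 339 to 404 CPM in KO and 259 to 321 CPM in WT libraries of the first. Pax5 and Cd72 rose in KO colon of the second table, with log2 fold changes of 3.73 and 2.37. Their edgeR adjusted p values were 0.0315 and 0.0406. As the genes nearest to Irf5 by r within the tables, Pax5 and Cd72 give no separate support for the Irf5 values. In the first table, where Irf5 lay at −0.01, they had −0.85 and −0.70 (edgeR adjusted p = 0.0704 and 0.0933). Lyn passed in neither table, with log2 fold changes of 0.31 and 1.05 (edgeR adjusted p = 0.0878 and 0.193). Lyn makes up nearly all of the myeloid sum, and Tfec, a transcription factor gene of macrophages, did not follow Irf5. Tfec had 11.4 and 3.15 CPM in KO against 4.30 and 4.88 CPM in WT libraries of the second table. In the first table it rose in KO colon, with a log2 fold change of 1.49 and an adjusted p of 0.0301 in edgeR. Counts of Tfec were few, with 6 in the lowest library. Tox, 1 of 2 T cell markers listed and the 1 in the regions, went the other way from Irf5 in the second table, at 48.1 to 63.0 CPM in KO and 101 to 112 CPM in WT libraries. It fell over all 10 libraries by 0.59 on the log2 scale (edgeR adjusted p = 0.0427). No marker read there was at 0 in any library. For the epithelium, 3 of 7 markers lie in the regions, and their sum was 6638 to 7271 CPM in KO and 6220 to 7088 CPM in WT libraries of the second table. The part of B and myeloid cells in the Irf5 result was not tested.

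The pattern of Samd9l was shared most closely by Trp53inp1, a p53-induced stress gene (r = 0.87), Invs, a ciliary gene (r = 0.85), and Reck, an inhibitor of matrix metalloproteases (r = 0.84). The same genes kept r of 0.84, 0.83 and 0.81 without WT libraries 4 and 5. None of these 3 passed in edgeR over all libraries or within either table. Their log2 fold changes were −0.39, −0.33 and −0.64 within the first table, and 0.52, 0.20 and 0.67 within the second. These have the signs of Samd9l. The genes were chosen by r within the tables, which largely sets those signs, so the match is no separate support. Of 3 markers listed for stroma 2 lie in the regions, the collagen genes Col1a2 and Col15a1. Col1a2 had 551 to 759 CPM in KO and 798 to 1211 CPM in WT libraries of the first table, and 743 to 1141 CPM in KO and 582 to 695 CPM in WT libraries of the second, so its values were ordered by genotype as those of Samd9l were in each table. Its log2 fold changes were −0.53 and 0.56, and neither passed in edgeR. Col15a1 had 73.5 to 89.7 CPM in KO and 91.7 to 154 CPM in WT libraries of the first table. In the second it did not follow Samd9l, with 107.1 and 107.8 CPM in KO against 135 and 102 CPM in WT libraries. The summed level of both was 640 to 845 CPM in KO and 890.2 to 1364 CPM in WT libraries of the first table, and 850.5 to 1248 CPM in KO and 717 to 797 CPM in WT libraries of the second. Of 3 smooth muscle markers 2 lie in the regions, Cav1 and Tpm2. Cav1 had 157 to 281 CPM in KO and 295 to 366 CPM in WT libraries of the first table. In the second its values overlapped, at 256 and 521 CPM in KO against 160 and 261 CPM in WT libraries. Its log2 fold changes were −0.51 and 0.89, those of Tpm2 −0.60 and −0.14, and those of the goblet cell marker Spink4 −0.21 and 0.02. None passed in edgeR. The part of stromal or smooth muscle cells in the Samd9l result was not tested.

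The values most like those of Ddx58 were found in Svep1, a gene of the extracellular matrix (r = 0.85), Nrf1, a transcription factor gene of mitochondrial biogenesis (r = 0.73), and Bach2, a transcription factor gene of lymphocytes (r = 0.71). Without WT libraries 4 and 5 they were −0.47, 0.74 and −0.12, so the likeness to Svep1 and Bach2 came with those 2 libraries. For Trim14 the nearest were Ndufb6, a subunit gene of respiratory complex I (r = 0.75), Plekhf2 (r = 0.66) and Wasl, an actin nucleation gene (r = 0.63). The 4 genes were not close to each other. The highest r among their pairs was 0.61, between Ddx58 and Irf5, and the lowest −0.017, between Trim14 and Irf5.

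The wider pathway could be read only in part. Of 130 genes listed for RNA sensing, for interferons with their receptors and signalling, and for interferon induction, 7 lie in the regions, and these include the 4. Ifnk, the gene of interferon kappa, a type I interferon known from skin, had 1 count over all libraries and was too low to judge. Ripk2, a kinase gene that interferon induces and that signals for NOD receptors, had 80.7 to 135 CPM in KO and 82.5 to 104 CPM in WT libraries. The values overlapped, with a log2 fold change of 0.25 ± 0.14 (SE) and an adjusted p of 0.299 in edgeR. Tdrd7, an interferon-inducible gene that restrains viruses through autophagy, had 216 to 249 CPM in KO and 220 to 255 CPM in WT libraries. Its log2 fold change was 0.03 ± 0.08 (SE), with an adjusted p of 0.834 in edgeR.

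Of the 6 readable genes that were tested, 0 rose and 0 fell over all libraries by edgeR, where 5.63% of all rows were called. Samd9l alone of the 6 fell in the first table, where 6.06% of all rows were called and 2.96% as lower in KO. The other 4 interferon-inducible genes did not pass there. Ddx58, Trim14 and Ripk2 had log2 fold changes of 0.11, 0.11 and 0.19 beside the −0.43 of Samd9l, and Tdrd7 lay at 0.00, or at −0.038 when scaled by library totals. In the second table all 5 had log2 fold changes above 0, from 0.01 for Trim14 to 0.62 for Ddx58, and 0 passed in edgeR, where 0.856% of all rows were called. The median log2 fold change of all rows was 0.02 in that table.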

How the data were processed

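Colon RNA of 5 KO and 5 WT samples was sequenced on a BGISEQ-500, per the labels. The deposited values are read counts per Ensembl gene, with no normalisation. For the first table the submitters' processing notes name HISAT2 2.2.1, featureCounts 2.0.1 and GRCh38, which is a human build. For the second they name HISAT2, featureCounts 2.0.1 and mm10. GENCODE M21 named 52083 of 55416 identifiers; the 3333 others stayed in tests and totals. CPM were computed from column totals. The test was that of edgeR 4.0.16 under R 4.3.3 (TMM, filterByExpr, quasi-likelihood test, Benjamini-Hochberg over all rows, threshold 0.05), with the table as covariate, in each table alone, and as an interaction. The 95% intervals come from the standard errors. DESeq2 1.42.0, limma 3.58.1 voom, other scalings, no low-count filter and omitted libraries were tried. The edgeR fits of KO against WT were checked for the recovery of planted changes in simulated data. These data had no difference between tables and the same spread setting for every gene. They do not show how the fits behave where genes differ in spread. The interaction, DESeq2 and voom fits were not checked so. A gene counted as too low where it failed the filter or had under 10 counts in more than 5 libraries. Besides the 4 genes, the text names listed interferon genes and markers in the regions and the 3 most similar rows for each gene. Genes, lists and regions were chosen with earlier results of these data known, and that counts follow names in the regions was taken from those results.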

Additional observations from a re-analysis of the deposited data

Results flagged for a closer look

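The effect of genotype differed between the 2 deposited tables for Samd9l and Irf5 by edgeR's test of the interaction. By edgeR 2.05% of all rows had such an interaction, and 3.12% of those in the regions. For Samd9l the log2 fold change of KO over WT was −0.43 within the first table and 0.34 within the second, and the interaction had an adjusted p of 0.0219 in edgeR. For Irf5 it was −0.01 and 1.99, and the interaction had an adjusted p of 0.0479 in edgeR. In voom it did not pass for Irf5, with an adjusted p of 0.103. For both genes edgeR lost the call without KO library 1 or 3 or WT library 3. Both calls were also lost without WT library 4 or 5, where only 1 WT library was left in the second table. Both KO libraries lay above both WT libraries in the second table for each gene, and for Ddx58 too. The interaction of Ddx58 did not pass (edgeR adjusted p = 0.487). How many of all rows lay so in that table was not counted. No single library stood apart by Dixon's test in the 12 groups of 5 libraries examined for the 6 tested genes. That test asks about 1 extreme library. A pair that is low together, as WT libraries 4 and 5 were for Irf5, can escape it.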

How the results depend on the processing

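No paired analysis was possible because no label pairs a KO library with a WT library. The count of 548 called rows over all libraries was 848 with DESeq2, 1260 with no filter, 201 when a log2 change of 1 or more was asked, 78 without both WT libraries of the second table, and 226 to 990 as single libraries were left out. The first table gave 596, 1322 with no filter and 158 to 456 without single libraries. The second gave 85, 439 with DESeq2, 28 with voom, 2 with no filter and 0 to 5 without single libraries. Interaction calls were 200, 344 with DESeq2, 717 with no filter and 57 to 484 without single libraries, an alternative chosen after seeing the data.

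Irf5 passed over all libraries with no filter (log2 0.77) and in the second table with DESeq2 (1.99), and its interaction did not pass with voom (1.89). In the first table Irf5 turned to 0.026 with voom and 0.037 with no filter, and ran from −0.23 to 0.16 without single libraries. Samd9l ran from −0.46 to −0.38 there, and the interactions from 0.69 to 0.82 for Samd9l and from 1.46 to 2.36 for Irf5. Trim14 ran from −0.015 to 0.18 over all libraries, −0.021 to 0.31 in the first table, −0.13 to 0.15 in the second and −0.29 to 0.049 for its interaction. Ddx58 ran from 0.15 to 0.41 over all libraries, 0.011 to 0.18 in the first table, 0.24 to 1.11 in the second and 0.11 to 1.007 for its interaction. The interaction of Ripk2 ran from −0.12 to 0.32. Tdrd7 turned to −0.0077 without both second-table WT libraries, to −0.038 in the first table with library totals and to −0.0056 for its interaction with no filter. It ran from −0.016 to 0.070 over all libraries, −0.070 to 0.088 in the first table and −0.030 to 0.14 for the interaction. The cause of these changes was not tested. Where leaving out a library left 1 of a genotype in a table, that library was assumed to vary like the others. With 2 libraries per genotype, the second table limits what could be called there.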
